A study of Homo sapiens with 22 samples.

Results

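Retinoic acid is used to push cultured neuroblastoma cells towards a more neuronal state, and the 6 libraries described here come from such a treatment of SH-SY5Y cells in which the long non-coding transcript CASC15-003 had been knocked down. SH-SY5Y is an established human neuroblastoma line of sympathetic origin. The 6 libraries are all those whose titles name CASC15-003 and a monolayer at day 7 or day 0, out of 22 libraries in the series, and they were assigned to day 7 or day 0 by title. The series as a whole used knockdown and RNA sequencing to characterise CASC15-003 and CASC15-004, transcripts of a neuroblastoma susceptibility locus on chromosome 6.

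The sh003 day 7 group had 3 libraries, from cells with a stable shRNA against CASC15-003 after 7 days of retinoic acid at 10 mM, the dose as the labels give it, in medium with 1% fetal bovine serum. The sh003 day 0 group had 3 libraries, from cells with a stable shRNA against CASC15-003 in medium with 10% serum. In each of the groups the label of 1 library gives the other serum, as described below. Day 7 therefore differed from day 0 by retinoic acid, by 7 days of culture and, as the treatment text has it, by serum and medium, and these cannot be told apart. Another part of the labels gives 10% serum for the retinoic acid treatment as well. A scrambled shRNA without a mammalian target was carried by the control cells (2 day 7 and 3 day 0 libraries), and shRNAs against CASC15-004 by the sh004 cells (2 day 7 and 2 day 0 libraries). All lines were made by lentiviral transduction and puromycin selection, so each shRNA is 1 selected population, and no label says that the libraries came from separate cultures: p-values measure the spread between these libraries, which may be partly technical.

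Libraries are named by shRNA and by the batch number in their titles. Throughout, the 3 day 7 values of sh003 cells are in the order sh1 batch 2, sh2 batch 1, sh2 batch 2, and the 3 day 0 values in the order sh1 batch 3, sh2 batch 1, sh2 batch 2. The 2 sh2 batches thus form matched pairs of day 7 and day 0, while the sh1 libraries of the 2 days came from different batches. The labels contradict themselves for 2 of the 6 libraries. The sh1 batch 2 library is titled and timed as day 7 but tagged as not differentiated and described as grown in 10% serum. The sh2 batch 1 library titled day 0 is tagged as differentiated with retinoic acid, in 1% serum. In both, expression went with the title: CYP26A1, an enzyme gene that retinoic acid induces, stood at 687 RPKM in the sh1 batch 2 day 7 library and at 0.199 RPKM in the sh2 batch 1 day 0 library. These values do not show which serum was used. On the second principal component, which held 11.5% of the variance, the sh1 batch 2 day 7 library lay at -52, beside the sh2 day 7 libraries at -50.1 and -60.2. The sh2 batch 1 day 0 library lay at 29.5, beside the sh2 batch 2 day 0 library at 29.3, while the sh1 batch 3 day 0 library lay between the days at -4.24. Counts of changed genes are given with and without the 2 contradicting libraries.

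Retinoic acid is a derivative of vitamin A that enters the nucleus and binds heterodimers of the retinoic acid receptors (RAR) and the retinoid X receptors (RXR), which sit on paired short repeats in DNA and switch from repression to activation when the ligand binds. Cells answer with genes that limit the ligand, among them the CYP26 hydroxylases that degrade it and DHRS3 that returns retinaldehyde to retinol, and with HOX genes, which set position along the body axis. Neuroblastoma lines treated with it typically leave the cell cycle slowly and extend neurites, and they gain receptors for neurotrophic factors.

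The shRNA target sites are shown because the knockdown rests on them. Each sequence is given as the labels list it, 5′ to 3′, in lower case throughout.

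sh003 sh1: ctagcactgacctccttcatt

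sh003 sh2: ctttccatcagccaacaatat

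Both matched the plus strand of CASC15 on human chromosome 6 in the GRCh38 build, at chr6:21668702-21668722 for sh1 and at chr6:21668743-21668763 for sh2, with 20 bases between the sites. CASC15 itself spans chr6:21664772-22368328 on the plus strand. The sites lay in 2 of its 8 annotated transcripts, exon 3 of 7 in CASC15-205 and exon 2 of 12 in CASC15-206. Neither site of the other knockdown, which lay in exon 1 of CASC15-202 and CASC15-204, is in those transcripts. The deposited table has 1 value for the whole CASC15 gene, which covers all 8 transcripts, so it does not check the knockdown of CASC15-003. CASC15 had 2.08, 3.27 and 3.38 RPKM in the sh003 day 7 libraries and 2.65, 1.95 and 1.57 RPKM in the sh003 day 0 libraries. The days overlapped, and the change of 0.41 ± 0.24 (± standard error, n = 3 each) on the log2(RPKM + 0.5) scale did not pass the test (adjusted p = 0.404), whereas with batch as a block it was 0.62 ± 0.17 with adjusted p = 0.0388. Control cells had 3.33 and 3.26 RPKM at day 7 and 1.52, 1.31 and 2.38 RPKM at day 0. The antisense gene NBAT1 overlaps CASC15, and it is not stated whether reads were counted by strand.

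Depth was 12116148 to 32663854 reads assigned to genes in the sh003 libraries. Batch was the main difference between libraries: the first principal component held 68.7% of the variance and set the 4 batch 1 libraries of control and sh003 cells apart from the other 11. In batch 1, 76 genes were at 0 that had at least 5 RPKM in each of the other 11 libraries, 59 of them between 28 and 34 Mb on chromosome 6 in GRCh38, and 93 genes, 90 of them processed pseudogenes, showed the reverse. None of these genes was among those called below. RXRB, HLA-B and HLA-C were at 0 RPKM in both batch 1 libraries of sh003 cells, and their changes therefore rest on the other batches. Markers of other cell types were low in all 6 libraries: summed over their lists, Schwann cell and glial genes had 5.55 to 8.63 RPKM, blood and immune genes 0.446 to 0.931 RPKM, endothelial genes 1.5 to 3.19 RPKM and epithelial and melanocyte genes 2.5 to 9.3 RPKM. None of the 7 members of these lists that were high enough to test was called by limma, and 0 had an unadjusted p under 0.05, where 3598 of all 19461 genes did. Sympathetic identity was present at both days through PHOX2A, given below, and HAND2, with 149.9, 176 and 205 RPKM at day 7 and 255, 239 and 291 RPKM at day 0, but TH, which encodes the tyrosine hydroxylase of catecholamine cells, did not pass the filter on low values.

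After 7 days of retinoic acid, sh003 cells carried far more of the retinoid genes CYP26B1, CYP26A1, DHRS3, CRABP2 and RARB, of the neurotrophin and GDNF receptors NTRK2 and RET and of several HOXD genes. They carried less of the BMP-responsive factors ID4, ID2 and MSX2, of the neuropeptide NPY and of 7 genes of DNA replication and mitosis. The related ID1 and ID3 did not pass. CRABP2, HOXD3, ID2, NPY and most of the 7 were not called without the 2 libraries with contradicting tags. In numbers, 458 of 19461 genes tested were called at an adjusted p under 0.05 (2.35%), of which 305 were higher at day 7 (1.57%) and 153 lower (0.786%), by limma on log2(RPKM + 0.5) with 6 group means over all 15 monolayer libraries. The change over all genes had a median of 0.05, with 55.2% of genes higher at day 7. Among the 305 genes that rose the median change was 1.36, and 83 rose by more than 2 on the log2 scale. Among the 153 that fell the median was -1.30, and 40 fell by more than 2. Every one of the 458 moved the same way in both sh2 pairs. This follows from the day 7 and day 0 groups of all 458 not overlapping, and is no separate check. In bulk RNA such as this, fewer cells of a kind and less RNA per cell cannot be told apart.

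Pairing the libraries by batch raised the count to 2779 (14.3%), 1684 up and 1095 down, and all 458 genes were among them. Under median-ratio scaling of the libraries 255 genes rose and 210 fell. Leaving out the 2 libraries with contradicting tags left 191 called genes, 89 up and 102 down, and with batch as a block as well 911. Single libraries moved the count: 124 genes were called without the sh2 batch 2 day 7 library, 152 without the sh2 batch 2 day 0 library, 180 without the sh2 batch 1 day 0 library and 187 without the sh2 batch 1 day 7 library. Without all batch 1 libraries 65 genes were called. Over all genes tested, the day 7 and day 0 groups did not overlap for 4592 genes (23.6%), 2899 up (14.9%) and 1693 down (8.7%).

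**Figure D1:**
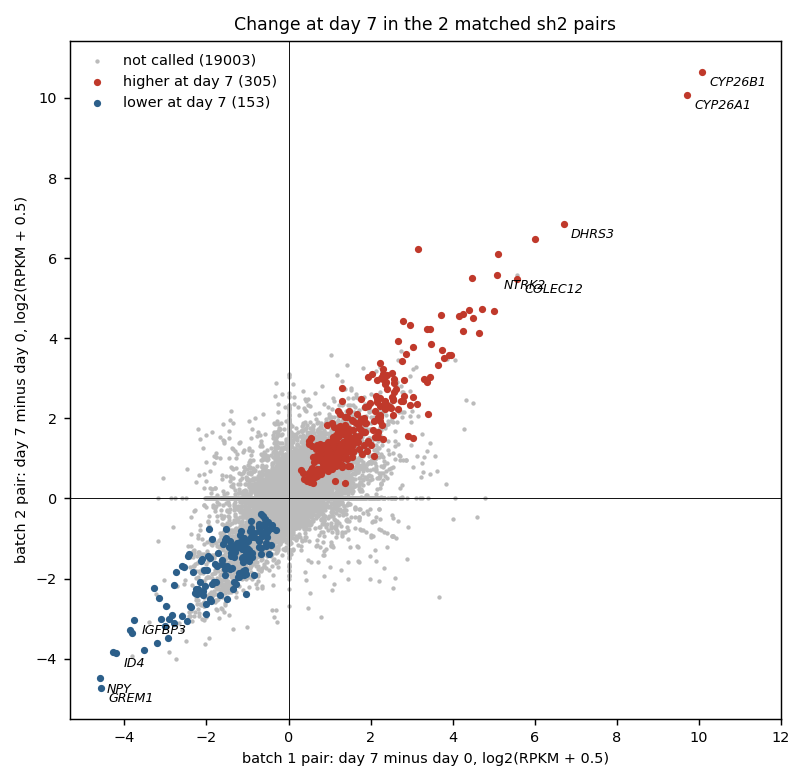
Change of every tested gene in the 2 matched sh2 pairs, day 7 minus day 0 on the log2(RPKM + 0.5) scale, batch 1 pair on the x axis and batch 2 pair on the y axis. Red points are the 305 genes called higher, blue points the 153 called lower and grey points the genes not called. All 458 called genes lie in the upper right or the lower left quadrant, which follows from their groups not overlapping. CYP26B1 lies at 10.08 and 10.66 and CYP26A1 at 9.72 and 10.08 in the batch 1 and batch 2 pairs.

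The genes that degrade retinoic acid changed most. CYP26B1, a hydroxylase that inactivates retinoic acid, had 1079.8, 1162 and 990.1 RPKM in the sh003 day 7 libraries and 0.19, 0.576 and 0.112 RPKM in the day 0 libraries. The gene was all but absent from the day 0 libraries and among the highest retinoid genes of every day 7 library (log2 change 10.45 ± 0.64, adjusted p = 3.77e-05). The paralogous hydroxylase CYP26A1 had 687, 588 and 571 RPKM at day 7 and 0, 0.199 and 0.0284 RPKM at day 0, where 0, 6 and 2 reads were assigned to it. Its groups were likewise far apart (log2 change 10.07 ± 0.88, adjusted p = 0.000265), although with so few day 0 reads the size of the change depends on the constant added before the logarithm, and by limma-voom on reads its adjusted p was 0.101. Because 0.5 RPKM is added, changes of genes this low at day 0 are understated. DHRS3, the retinaldehyde reductase, had 106, 94.1 and 84.5 RPKM at day 7 and 2.5, 0.408 and 0.232 RPKM at day 0. The sh1 batch 3 day 0 library was the highest of its group, still far under every day 7 library (log2 change 6.24 ± 0.63, adjusted p = 0.000604).

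Among the proteins that carry retinoids inside cells, CRABP2, which delivers retinoic acid to the nuclear receptors, had 1036, 302 and 289 RPKM at day 7 and 17.4, 11.6 and 16 RPKM at day 0. The day 7 value of sh1 was far above those of sh2, and the groups did not overlap (log2 change 4.88 ± 0.75, adjusted p = 0.00797). CRABP2 was not called without the 2 libraries with contradicting tags. The related CRABP1 went the other way, with 26.2, 20.4 and 18.3 RPKM at day 7 and 98.1, 60.7 and 69.7 RPKM at day 0, and every day 7 library was under every day 0 library (log2 change -1.78 ± 0.27, adjusted p = 0.00823). STRA6, the membrane receptor for the plasma retinol carrier, had 9.42, 41.8 and 25.4 RPKM at day 7 and 19.2, 37.5 and 37.6 RPKM at day 0, and these overlapped.

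Of the receptors themselves, RARB, whose gene is a classical direct target of the pathway, had 49.3, 57.1 and 77.2 RPKM at day 7 and 1.76, 1.29 and 2.52 RPKM at day 0. The lowest day 7 library was far above the highest day 0 library (log2 change 4.72 ± 0.41, adjusted p = 0.000265). RARB overlaps TOP2B on the other strand, which had a mean of 46.5 RPKM over the sh003 libraries. RARG had 30.9, 22.6 and 23.4 RPKM at day 7 and 13.2, 14.3 and 15.4 RPKM at day 0 and RARA 27.8, 38.6 and 23.3 RPKM at day 7 and 14.4, 22.2 and 19 RPKM at day 0. For both genes the days were separate, yet neither change passed without the batch block (adjusted p = 0.0685 for RARG and 0.131 for RARA; with the block 0.0312 and 0.0218). RXRA stood at 5.01, 5.59 and 5.7 RPKM at day 7 and 4.82, 6.83 and 5.37 RPKM at day 0, and these overlapped. TGM2, a transglutaminase long known as a retinoic acid target, had 83.7, 44.8 and 37.2 RPKM at day 7 and 47.2, 0.462 and 0.288 RPKM at day 0. Its day 0 value was high in the sh1 batch 3 library only, and the change passed only with the block (adjusted p = 0.165 without it and 0.0012 with it). Of the 24 genes listed for retinoid handling and reception, 18 were high enough to test, 6 rose and 1 fell, against 2.35% of all genes called in either direction, and their median change was 0.77. Leaving out the 2 libraries with contradicting tags, 5 rose and 1 fell. By the same test 6 of the 18 rose and 0 fell in control cells (0.956% of all genes called), and 6 rose and 0 fell in sh004 cells (0.38% of all genes called).

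The promoters of the 2 most characteristic RAR targets are shown because a paired short repeat lies just upstream of the start in each. The sequences are RefSeq promoters of GRCh38.p14, 5′ to 3′ in the direction of transcription, covering the 120 bases before the start, and capitals mark the match.

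RARB: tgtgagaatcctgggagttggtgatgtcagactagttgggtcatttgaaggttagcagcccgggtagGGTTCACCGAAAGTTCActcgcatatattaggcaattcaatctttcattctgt

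CYP26A1: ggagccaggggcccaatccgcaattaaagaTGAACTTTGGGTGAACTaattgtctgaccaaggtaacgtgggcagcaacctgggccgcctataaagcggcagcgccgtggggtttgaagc

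The RARB window is chr3:25428143-25428262 on the plus strand, and its match begins 53 bases before the start. The CYP26A1 window is chr10:93073773-93073892 on the plus strand, and its match, on the other strand, begins 90 bases before the start. The letters searched on both strands were NGNTCANNNNNNGNTCA, a direct repeat of the receptors' short site spaced by 5 bases. This pattern was found in 254 of 35116 RefSeq promoters (0.723%), in 3 of the 331 promoters of genes that rose (0.906%), those of RARB, CYP26A1 and DHCR7, and in 2 of the 169 promoters of genes that fell (1.18%), those of ADAM12 and ARHGAP36. With the stricter standard letters of the short site, 31 of all promoters (0.0883%) held a match, and of genes that rose only those of RARB and CYP26A1 did (0.604%), and none of genes that fell. The genes that rose matched 190 entries by symbol and those that fell 116. The search reached only 250 bases before to 50 bases after each start, no pattern with spacing 1 or 2 was found at these 2 genes, and a match is a description of the letters.

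**Figure D2:**
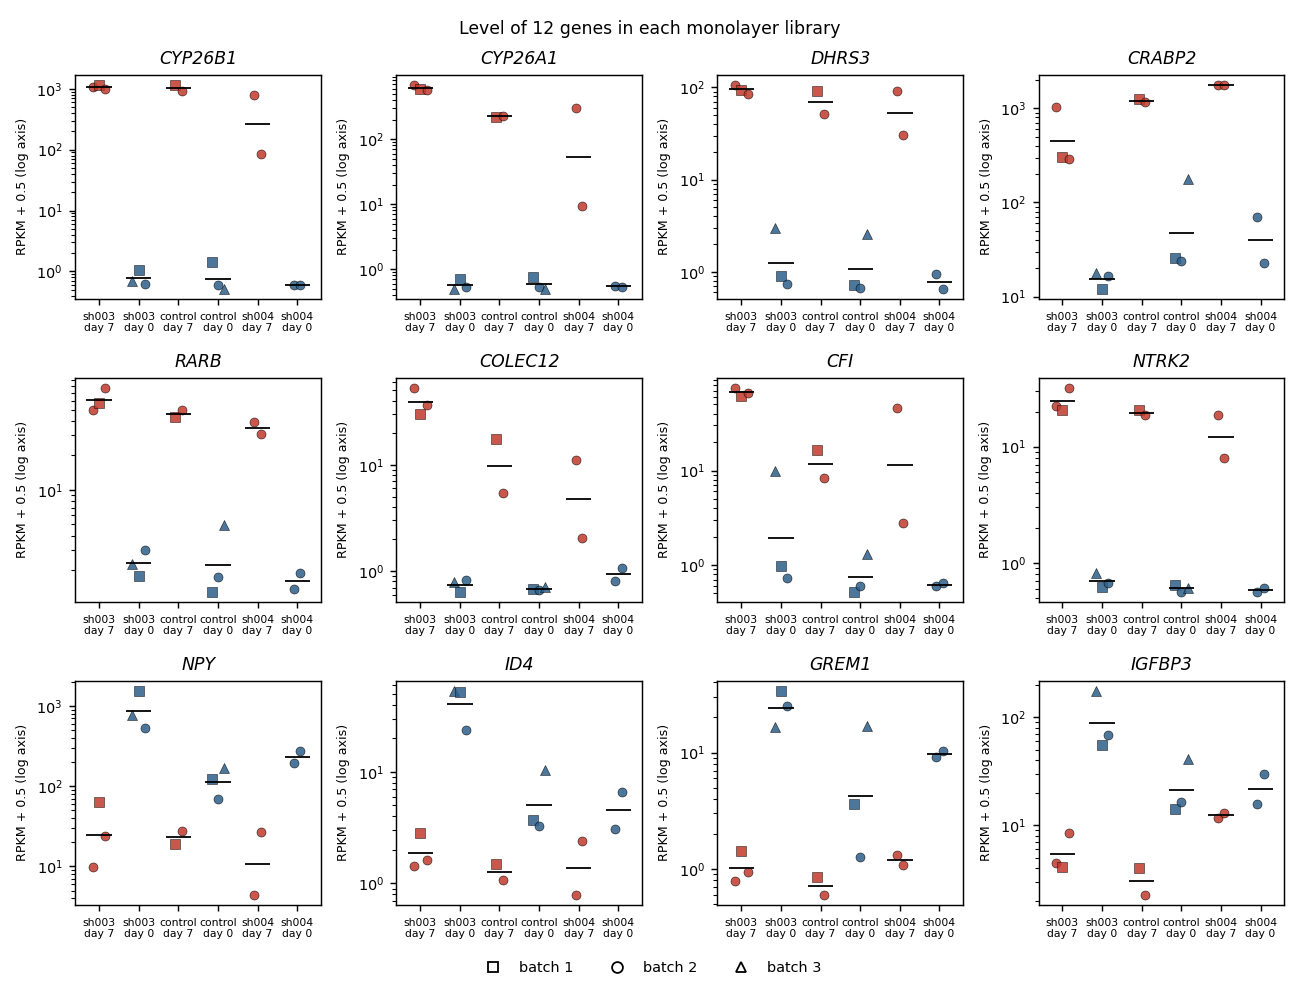
Level of 12 genes in each monolayer library, RPKM + 0.5 on a log axis, with sh003 day 7 and day 0 first, then control and sh004. Red marks day 7 and blue day 0; squares, circles and triangles mark batches 1, 2 and 3, and the line is the mean of the log2 values. In sh003 cells CYP26B1 lies between 990.1 and 1162 RPKM at day 7 and between 0.112 and 0.576 RPKM at day 0, and NPY lies between 9.47 and 63.5 RPKM at day 7 and between 536 and 1547 RPKM at day 0.

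Several genes of the HOXD cluster and cofactors of HOX proteins rose at day 7. HOXD8 had 20.4, 23.7 and 27.4 RPKM at day 7 and 5.6, 4.27 and 4.68 RPKM at day 0 (log2 change 2.18 ± 0.16, adjusted p = 8.78e-05). HOXD9 had 29.7, 32.7 and 29.1 RPKM at day 7 and 10.3, 9.25 and 7.01 RPKM at day 0 (log2 change 1.75 ± 0.22, adjusted p = 0.0027). For both genes all 3 day 7 libraries lay well above all day 0 libraries. HOXD3 had 5.02, 5.41 and 4.92 RPKM at day 7 and 1.3, 2.14 and 2.09 RPKM at day 0 (log2 change 1.28 ± 0.25, adjusted p = 0.0251), and shares its locus with the antisense genes HOXD-AS2 and HAGLR. HOXD13, at the far end, had 2.01, 1.11 and 0.933 RPKM at day 7 and 2.1, 1.62 and 2.25 RPKM at day 0, and these overlapped. The cofactor MEIS2 rose with a small spread, at 36.4, 39.4 and 41.1 RPKM at day 7 and 23.8, 23.7 and 26.4 RPKM at day 0 (log2 change 0.65 ± 0.11, adjusted p = 0.0143). MEIS1 had 8.5, 12.1 and 14.7 RPKM at day 7 and 9.63, 3.91 and 4.17 RPKM at day 0, where the sh1 day 0 library lay within the day 7 range, and passed only with the block (adjusted p = 0.212 without it and 0.00507 with it). Of 32 HOX genes and cofactors listed, 17 passed the filter, all others being too low to test. Of the 17, 5 rose and none fell (1.57% of all genes rose), 8 rose with the block (8.65%), and 15 had a change above 0, with a median of 0.92. Summed over the 32, the level was 164, 167 and 169.5 RPKM in the day 7 libraries and 84.5, 84.6 and 84.5 RPKM in the day 0 libraries. Leaving out the 2 libraries with contradicting tags, 2 of the 17 rose. In the sh004 cells 2 rose (0.252% of all genes rose), and in the control cells 2 (0.704%).

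The receptors for neurotrophic factors rose in 3 of 15 tested members (1.57% of all genes rose). NTRK2, the receptor for BDNF, had 21.6, 20.3 and 31.6 RPKM at day 7 and 0.324, 0.122 and 0.17 RPKM at day 0. It was near absent in every day 0 library (log2 change 5.13 ± 0.28, adjusted p = 2.54e-05). RET, the signalling receptor for the GDNF family, had 708, 765 and 852 RPKM at day 7 and 98.9, 48.8 and 70.7 RPKM at day 0, and each day 7 library was far above each day 0 library (log2 change 3.46 ± 0.42, adjusted p = 0.0023). GFRA1, the co-receptor that presents GDNF to RET, had 3.54, 2.22 and 2.39 RPKM at day 7 and 0.465, 0.663 and 0.487 RPKM at day 0, a low level at both days, without overlap (log2 change 1.61 ± 0.25, adjusted p = 0.0095). ALK, a receptor kinase mutated in some neuroblastomas, had 3.07, 14.5 and 6.92 RPKM at day 7 and 3.2, 5.01 and 2.56 RPKM at day 0. The ALK values of the 2 days overlapped, since the sh1 day 7 library was low. None of the 15 fell without the block. With it NGFR, the low-affinity neurotrophin receptor, fell with 0.575, 0.483 and 0.174 RPKM at day 7 and 4.4, 2.96 and 0.90 RPKM at day 0 (log2 change -1.45 ± 0.37, adjusted p = 0.031), as did EGFR, the receptor for epidermal growth factor, with 9.71, 9.09 and 11.3 RPKM at day 7 and 45.8, 24.2 and 26.5 RPKM at day 0 (log2 change -1.15 ± 0.28, adjusted p = 0.027). NTRK2 and RET kept their calls without the 2 contradicting libraries, with 2 of the 15 called, where 191 of all 19461 genes were.

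In the noradrenergic programme 2 of 20 tested genes fell (0.786% of all genes fell). DDC, the decarboxylase that makes dopamine, had 0.726, 1.46 and 0.913 RPKM at day 7 and 23.4, 22 and 19 RPKM at day 0. Every day 7 library was under 2 RPKM (log2 change -3.86 ± 0.62, adjusted p = 0.01). SLC6A2, the noradrenaline transporter, had 3.33, 8.5 and 4.79 RPKM at day 7 and 26.7, 61.8 and 45.4 RPKM at day 0, with the sh2 batch 1 library highest at each day (log2 change -2.91 ± 0.56, adjusted p = 0.0241). Another 7 genes fell once batch was taken as a block, among them the vesicular monoamine transporter SLC18A1, the hydroxylase DBH and the transcription factors HAND1, GATA2, GATA3 and TFAP2B. GATA3 had 29.1, 49.9 and 42.1 RPKM at day 7 and 80.5, 155 and 148 RPKM at day 0 (adjusted p = 0.068 without the block and 0.00897 with it). The 2 days of GATA3 were separate. PHOX2A, a homeobox factor of the sympathetic lineage, had 379.6, 536 and 433 RPKM at day 7 and 206, 372 and 278 RPKM at day 0 (adjusted p = 0.184). Of the 20 none rose, 9 fell with the block (5.63% of all genes fell), the median change was -1.0, and 3 of the 20 were above 0. Without the 2 contradicting libraries none of the 20 was called.

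NPY, the most abundant of the listed neuropeptides at day 0, had 9.47, 63.5 and 23.4 RPKM at day 7 and 781, 1547 and 536 RPKM at day 0. Every day 7 library was far below every day 0 library (log2 change -5.13 ± 0.75, adjusted p = 0.00618). ADCYAP1R1, the receptor for PACAP, had 0.126, 0.267 and 0.148 RPKM at day 7 and 3.63, 4.15 and 1.58 RPKM at day 0 (log2 change -2.33 ± 0.52, adjusted p = 0.0413). Galanin (GAL) had 133, 671 and 289 RPKM at day 7 and 152, 166 and 86 RPKM at day 0. It was higher at day 7 in both sh2 pairs (log2 change 2.01 in batch 1 and 1.75 in batch 2), and the sh1 day 7 library lay within the day 0 range (adjusted p = 0.214). VIP, another neuropeptide, was at 1.47, 12.4 and 2.77 RPKM at day 7 and 91.8, 1.15 and 0.289 RPKM at day 0, high in the sh1 batch 3 day 0 library alone. The control library of batch 3 also had more VIP, 0.266, 0.417 and 23.6 RPKM being the control day 0 values in the order batch 1, 2 and 3. Without the 2 contradicting libraries neither NPY nor ADCYAP1R1 was called, nor any other of the 14 tested. Of 14 tested neuropeptides and receptors 2 fell and none rose (0.786% of all genes fell), and 1 rose and 3 fell with the block (14.3% of all genes).

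Of the genes that build axons and synapses, most did not pass. Of the 26 tested, 1 rose and none fell. The neurofilament gene NEFM had 0.895, 9.21 and 4.62 RPKM at day 7 and 7.13, 14.7 and 8.73 RPKM at day 0 (adjusted p = 0.351), and the neuronal tubulin TUBB3 3.37, 4.54 and 3.04 RPKM at day 7 and 2.43, 5.66 and 4.87 RPKM at day 0 (adjusted p = 0.925). Both overlapped between the days. GAP43, a growth cone protein, had 8.96, 35.5 and 21.5 RPKM at day 7 and 31.1, 102 and 86.8 RPKM at day 0, and fell only with the block (adjusted p = 0.123 without it and 0.0245 with it). The 26 had a median change of -0.09 beside 0.05 over all genes, and 7 of them were above 0 (2.35% of all genes called). This direction rested on the sh1 day 7 library: without it 15 of the 26 were above 0 (median 0.04), and without the 2 contradicting libraries 16 were (median 0.24) and none was called.

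Among guidance molecules, 2 of 22 rose and none fell (1.57% of all genes rose). NTN4, a secreted netrin, had 10.6, 11.8 and 14.2 RPKM at day 7 and 0.917, 1.31 and 0.863 RPKM at day 0 (log2 change 3.06 ± 0.27, adjusted p = 0.000275). EFNB2, a membrane-bound ephrin, had 63.8, 43.9 and 67.9 RPKM at day 7 and 10.1, 18.2 and 19 RPKM at day 0 (log2 change 1.89 ± 0.25, adjusted p = 0.00387). Both were higher in every day 7 library than in any day 0 library, and both kept their calls without the 2 contradicting libraries. With the block 5 rose and 2 fell (14.3% of all genes), and SLIT2, a repellent ligand of the ROBO receptors, was among those that rose, with 5.55, 10.9 and 10.6 RPKM at day 7 and 6.66, 2.37 and 2.22 RPKM at day 0 (log2 change 1.77 ± 0.25, adjusted p = 0.0034).

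Of the BMP, TGF-beta and ID genes, 5 fell and 1 rose. GREM1, a secreted BMP antagonist, had 0.294, 0.932 and 0.449 RPKM at day 7 and 15.9, 33.4 and 24.6 RPKM at day 0 (log2 change -4.55 ± 0.71, adjusted p = 0.00881). ID4, a dominant-negative helix-loop-helix factor that BMP signalling induces, had 0.94, 2.33 and 1.12 RPKM at day 7 and 52.8, 51.6 and 23 RPKM at day 0 (log2 change -4.42 ± 0.56, adjusted p = 0.00264). In both genes the day 7 libraries were under 3 RPKM and all day 0 libraries were far above that. MSX2, a homeobox target of BMP, had 2.09, 1.82 and 1.36 RPKM at day 7 and 12.5, 10.8 and 9.09 RPKM at day 0 (log2 change -2.33 ± 0.27, adjusted p = 0.00152). ID2 had 31, 25.4 and 32.4 RPKM at day 7 and 99.98, 54.6 and 65.3 RPKM at day 0 (log2 change -1.25 ± 0.29, adjusted p = 0.0461), and SMAD9, a receptor-regulated SMAD, 24.6, 27.8 and 27.3 RPKM at day 7 and 40.5, 66.5 and 59.8 RPKM at day 0 (log2 change -1.02 ± 0.19, adjusted p = 0.0219). Their smaller falls also left the days without overlap. The related ID1 had 119, 124 and 89.3 RPKM at day 7 and 172, 145 and 149.7 RPKM at day 0 (adjusted p = 0.754), ID3 had 152, 97.5 and 114 RPKM at day 7 and 78, 86.3 and 98.5 RPKM at day 0 (adjusted p = 0.716), and neither passed. BMPR1B, a type I BMP receptor, rose, with 9.05, 5.12 and 11.3 RPKM at day 7 and 2.39, 2.18 and 2.7 RPKM at day 0 (log2 change 1.56 ± 0.29, adjusted p = 0.0201). Of 22 tested genes 1 rose and 5 fell (1.57% and 0.786% of all genes), the median change was -0.39, and without the 2 contradicting libraries only ID4 and MSX2 were called. In the sh004 cells 4 of the 22 fell (0.128% of all genes fell), and in the control cells 4 (0.252%).

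The 2 insulin-like growth factor binding proteins that changed did so in opposite directions. IGFBP6, which prefers IGF2, had 531, 409.5 and 430.5 RPKM at day 7 and 12.2, 30.7 and 17.5 RPKM at day 0 (log2 change 4.56 ± 0.86, adjusted p = 0.0218). IGFBP3, the main carrier of IGFs in serum, had 4.02, 3.61 and 7.99 RPKM at day 7 and 176, 55.1 and 68.8 RPKM at day 0 (log2 change -4.02 ± 0.52, adjusted p = 0.00289). Neither pair of groups came near to overlap. With the block, 5 of the 12 tested genes of this axis fell (5.63% of all genes fell), IGFBP2 and IGFBP5 among them: IGFBP2 had 64.6, 53.1 and 29.2 RPKM at day 7 and 113, 128 and 83.6 RPKM at day 0 (log2 change -1.09 ± 0.26, adjusted p = 0.0235 with the block). Without the 2 contradicting libraries 1 of the 12 fell and none rose.

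Of 19 Wnt ligands, receptors and antagonists, DKK1, a secreted inhibitor of the LRP co-receptors, was the only one called without the block (0.786% of all genes fell). It had 21.9, 19.1 and 30.1 RPKM at day 7 and 103, 276 and 312 RPKM at day 0, and every day 7 library was far below every day 0 library (log2 change -3.13 ± 0.39, adjusted p = 0.00233). WNT5A, a non-canonical ligand, had 24.9, 9.87 and 12.2 RPKM at day 7 and 6.59, 3.11 and 1.38 RPKM at day 0, without overlap, and rose only with the block (adjusted p = 0.169 without it and 0.0121 with it). Of the 19, 4 rose and 2 fell with the block (14.3% of all genes called).

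Of the complement genes and related surface proteins, 3 rose. COLEC12, a collectin-type scavenger receptor, had 52.6, 29.8 and 36.4 RPKM at day 7 and 0.287, 0.14 and 0.321 RPKM at day 0 (log2 change 5.71 ± 0.55, adjusted p = 0.000464). CFI, the protease that inactivates C3b and C4b, had 74.7, 61.5 and 65.5 RPKM at day 7 and 9.45, 0.469 and 0.237 RPKM at day 0. The sh1 batch 3 library was the highest at day 0, and all day 7 libraries were above it (log2 change 5.13 ± 1.05, adjusted p = 0.0307). SERPING1, the inhibitor of the C1 proteases, had 21.9, 13 and 14 RPKM at day 7 and 7.76, 6.67 and 5.59 RPKM at day 0 (log2 change 1.20 ± 0.23, adjusted p = 0.0218). C3, the central component, did not pass, with 0.14, 0.0437 and 0.13 RPKM at day 7 and 137, 0.0198 and 0.0592 RPKM at day 0, almost all of it in the sh1 batch 3 library. The batch 3 control library shared this, with C3 at 0, 0.0566 and 42.1 RPKM in the control day 0 libraries of batches 1, 2 and 3, and whether batch 3 raised it was not tested. C1S, a protease of the same cascade, was likewise high there, with 3.18, 3.22 and 2.84 RPKM at day 7 and 19.8, 0.0775 and 0.116 RPKM at day 0, and rose only with the block (adjusted p = 0.847 without it and 0.00411 with it). Of the 13 tested, 3 rose and none fell (1.57% of all genes rose), and without the 2 contradicting libraries COLEC12 alone did. Taking batch as a block, 5 of the 13 rose and 1 fell (14.3% of all genes called). In sh004 cells none of the 13 rose (0.252% of all genes rose), and in control cells 1 (0.704%), with fewer day 7 libraries in both. The median change of the 13 was 0.37 in sh003 cells, 0.51 in control cells and 1.05 in sh004 cells, so the counts do not set sh003 cells apart.

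Matrix and mesenchymal genes mostly did not pass. LAMC1, a laminin chain, rose with 119.8, 103 and 129 RPKM at day 7 and 46, 64 and 61.3 RPKM at day 0 (log2 change 1.04 ± 0.23, adjusted p = 0.0401), and DCN, the proteoglycan decorin, fell with 0.758, 0.848 and 3.04 RPKM at day 7 and 3.93, 6.78 and 8.71 RPKM at day 0 (log2 change -1.88 ± 0.42, adjusted p = 0.0428). These 2 were the only ones called without the block among 24 matrix genes (1.57% of all genes rose and 0.786% fell), and neither was called without the 2 contradicting libraries. Of the 24, 2 rose and 1 fell with the block (14.3% of all genes called). LAMC1 was no longer called under median-ratio scaling. The collagen gene COL1A1 had 12.2, 9.77 and 9.14 RPKM at day 7 and 11.9, 11.8 and 12.1 RPKM at day 0, and these overlapped (adjusted p = 0.986). Of 14 markers of the mesenchymal state of neuroblastoma none was called without the block by limma or limma-voom (2.35% of all genes called). At an unadjusted p under 0.05 by limma 1 was higher and 2 were lower, where 3598 of all 19461 genes passed in either direction. With the block 1 of the 14 rose and none fell (8.65% of all genes rose). VIM, the intermediate filament vimentin, had 111, 60.6 and 86.3 RPKM at day 7 and 139, 198 and 222 RPKM at day 0 without overlap (adjusted p = 0.101), and NOTCH2, a receptor linked to that state, 43.9, 40.0 and 55.7 RPKM at day 7 and 15.3, 15.3 and 17.4 RPKM at day 0 (adjusted p = 0.075, 0.0334 with the block).

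**Figure D3:**
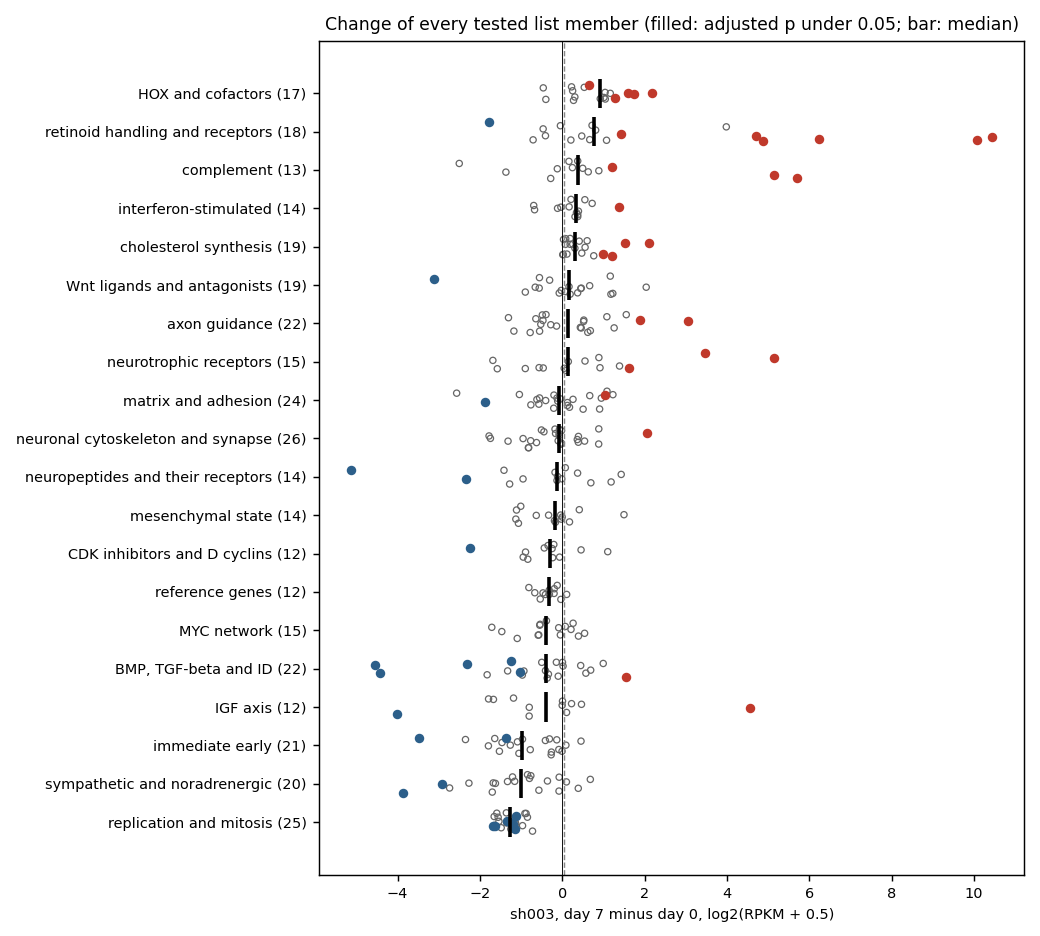
Change at day 7 against day 0 in sh003 cells of every tested member of each gene list, on the log2(RPKM + 0.5) scale, with the number tested in brackets. Filled points passed the test (red higher, blue lower), the bar is the list's median and the dashed line the median of all genes, 0.05; HOX and retinoid genes have the highest medians (0.92 and 0.77) and replication and mitosis genes the lowest (-1.28).

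All 25 genes of DNA replication and mitosis were lower at day 7, although most did not pass without the block. The median change was -1.28, against 0.05 over all genes, none rose and 7 fell (0.786% of all genes fell). RRM2, a subunit of ribonucleotide reductase, had 22.9, 12.3 and 14.4 RPKM at day 7 and 35, 47 and 87.6 RPKM at day 0 (log2 change -1.69 ± 0.33, adjusted p = 0.0252). CDC45, part of the replicative helicase, had 9.29, 7.95 and 6.87 RPKM at day 7 and 14.8, 20.6 and 31 RPKM at day 0 (log2 change -1.35 ± 0.25, adjusted p = 0.0211). For these the sh1 batch 3 library was the lowest of day 0, and the days were still separate. The other genes that fell were TYMS, the thymidylate synthase (log2 change -1.28 ± 0.26), the helicase loader CDC6 (-1.20 ± 0.23), the helicase subunit MCM4 (-1.14 ± 0.25), the sliding clamp PCNA (-1.13 ± 0.25) and the mitotic kinase CDK1 (-1.64 ± 0.37).

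With batch as a block 23 of the 25 fell (5.63% of all genes fell), and all 25 were lower in both sh2 pairs, with a median of -1.32 in the batch 1 pair and -2.13 in the batch 2 pair. Under quantile normalization 2 fell, and 13 fell when the sh1 day 7 library was left out. The 2 shRNAs parted in mitotic genes. MKI67, the proliferation antigen Ki-67, had 34, 14.2 and 8.11 RPKM at day 7 and 22, 44.8 and 57.3 RPKM at day 0. CCNB1, the mitotic cyclin, had 46, 10.8 and 7.41 RPKM at day 7 and 45.6, 45 and 60.7 RPKM at day 0. In both the sh1 day 7 library was within the day 0 range, while the sh2 day 7 libraries were under it, and the changes did not pass (adjusted p = 0.174 and 0.107; 0.0394 and 0.0438 with the block). Without the 2 libraries with contradicting tags, the sh1 day 7 library among them, 11 of the 25 fell. Of the 7 genes called with all libraries, TYMS and CDK1 were among these 11, and RRM2, CDC45, CDC6, MCM4 and PCNA were not.

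**Figure D4:**
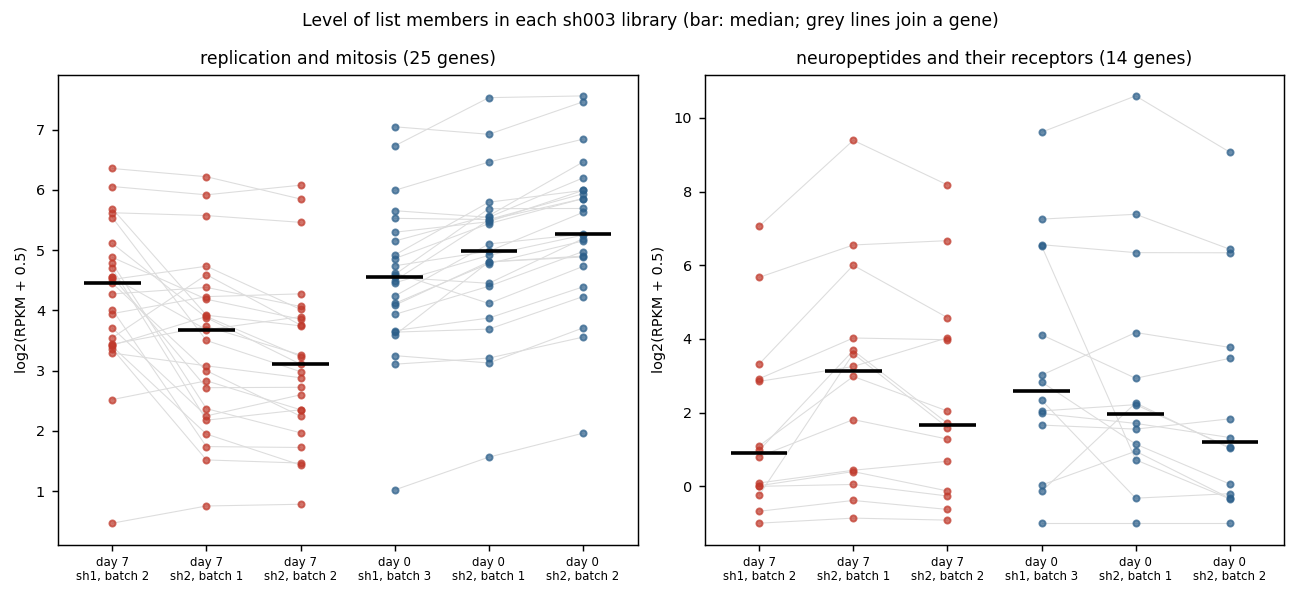
Levels of the 25 replication and mitosis genes and the 14 neuropeptide genes in the 6 sh003 libraries, as log2(RPKM + 0.5), day 7 before day 0. Grey lines join a gene across the libraries of a day and the bar is the median; the sh1 day 7 library, with a sum of 627 RPKM over the replication and mitosis genes, lies above the sh2 day 7 libraries, with 417 and 350.1 RPKM.

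Around the cell cycle engine, CCND1, the D-type cyclin that starts the cycle, fell, with 37.2, 122 and 66.3 RPKM at day 7 and 162, 489 and 416 RPKM at day 0. The sh1 library was the lowest at each day (log2 change -2.25 ± 0.45, adjusted p = 0.0278). It was the only one of 12 D cyclins, kinases and inhibitors called without the block (0.786% of all genes fell), and it was not called without the 2 contradicting libraries. Of the 12, 1 rose and 2 fell with the block (14.3% of all genes called). CDKN1A, the inhibitor p21, had 38.2, 50.5 and 40.1 RPKM at day 7 and 77, 127 and 45.9 RPKM at day 0 (adjusted p = 0.378), and CDKN1B, the inhibitor p27, 54.1, 40.2 and 45.8 RPKM at day 7 and 67.9, 49.2 and 48.7 RPKM at day 0 (adjusted p = 0.596). Both overlapped between the days. None of 15 genes of the MYC network was called without the block by limma or limma-voom (2.35% of all genes called). At an unadjusted p under 0.05 by limma 1 was higher and 6 were lower, where 3598 of all 19461 genes passed in either direction. With the block 1 of the 15 rose and 5 fell (14.3% of all genes called). MYC had 1.81, 4.3 and 1.13 RPKM at day 7 and 11, 7.0 and 6.88 RPKM at day 0 without overlap (log2 change -1.71 ± 0.42, adjusted p = 0.0604), and fell with the block (adjusted p = 0.0257). MYCN, not amplified in SH-SY5Y cells, was low, with 0.271, 0.327 and 0.0831 RPKM at day 7 and 1.68, 1.4 and 1.41 RPKM at day 0.

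Of 19 genes of cholesterol synthesis and its control, 4 rose and none fell (1.57% of all genes rose). INSIG1, which retains the sterol sensor in the endoplasmic reticulum, had 16.5, 29.6 and 47.2 RPKM at day 7 and 7.35, 4.57 and 7.07 RPKM at day 0 (log2 change 2.12 ± 0.31, adjusted p = 0.00663). Its days were separate, with sh1 the lowest of day 7. FDFT1, the squalene synthase, rose by 0.99 ± 0.18 and DHCR7, the last reductase of the pathway, by 1.22 ± 0.27 (adjusted p = 0.0177 and 0.0418). All 19 had a change above 0 (median 0.31), but 15 did with the block and 16 of 19 under median-ratio scaling, where DHCR7 was no longer called, and without the 2 contradicting libraries 1 rose.

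Immediate early genes and the phosphatases that limit ERK signalling were mostly lower, with 2 of 21 falling (0.786% of all genes fell), a median of -0.97 and 2 of the 21 above 0. The median was -0.60 without the sh1 day 7 library and -0.40 without the 2 contradicting libraries. DUSP2, a nuclear ERK phosphatase, had 0.491, 0.408 and 0.578 RPKM at day 7 and 9.16, 12.8 and 10.0 RPKM at day 0. It was low in each day 7 library (log2 change -3.48 ± 0.26, adjusted p = 8.05e-05). DUSP1 had 6.23, 7.09 and 5.03 RPKM at day 7 and 17, 22.4 and 11.7 RPKM at day 0 without overlap (log2 change -1.37 ± 0.26, adjusted p = 0.0212). FOS, the archetype of the class, had 3.11, 4.74 and 2.49 RPKM at day 7 and 3.57, 3.64 and 2.3 RPKM at day 0, and these overlapped. With the block 10 of the 21 fell (5.63% of all genes), among them NR4A1, an orphan receptor induced by growth factors, with 2.74, 2.06 and 1.51 RPKM at day 7 and 3.62, 11.7 and 7.48 RPKM at day 0 (log2 change -1.93 ± 0.21, adjusted p = 0.00102). Without the 2 contradicting libraries 1 fell.

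Of 14 interferon-stimulated genes, IRF9, the DNA-binding subunit of the interferon-activated factor ISGF3, was the only one called without the block (1.57% of all genes rose). It had 3.72, 3.12 and 3.51 RPKM at day 7 and 1.22, 0.74 and 1.11 RPKM at day 0 (log2 change 1.39 ± 0.22, adjusted p = 0.0101), and was not called without the 2 contradicting libraries or under quantile normalization. Taking batch as a block, 5 of the 14 rose and none fell (8.65% of all genes rose). Of 12 genes in common use as references none was called without the block by limma or limma-voom (2.35% of all genes called). With the block 3 of the 12 fell and none rose (5.63% of all genes fell). At an unadjusted p under 0.05 by limma 1 of the 12 was lower, where 3598 of all 19461 genes passed in either direction. The median change of the 12 was -0.32, and ACTB had 1417, 846 and 935 RPKM at day 7 and 1053, 1517 and 2141 RPKM at day 0.

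Beyond the lists, the largest rises included PLN, phospholamban, an inhibitor of the calcium pump of the endoplasmic reticulum, with 23.4, 5.03 and 38.3 RPKM at day 7 and 0.159, 0.124 and 0.0176 RPKM at day 0. The sh2 batch 1 library was the lowest of day 7 and remained far above day 0 (log2 change 4.85 ± 0.65, adjusted p = 0.00372). POU2AF2, a coactivator of POU-domain factors, had 13.3, 14.5 and 14.3 RPKM at day 7 and 0, 0.0685 and 0.0585 RPKM at day 0 (log2 change 4.74 ± 0.31, adjusted p = 3.77e-05). ADAMTS2, a procollagen protease, had 83.2, 51.2 and 82.6 RPKM at day 7 and 11.3, 0.999 and 0.715 RPKM at day 0, the sh1 library being the highest of day 0 (log2 change 4.68 ± 0.83, adjusted p = 0.0175). HIC1, a transcriptional repressor, had 34, 24.6 and 23.8 RPKM at day 7 and 0.542, 0.906 and 0.526 RPKM at day 0 (log2 change 4.59 ± 0.30, adjusted p = 3.77e-05), and overlaps SMG6 on the other strand, which had a mean of 11.7 RPKM. Among the largest falls outside the lists, FLT1, a receptor for VEGF, had 0.0721, 0.135 and 0.156 RPKM at day 7 and 1.19, 11.8 and 8.91 RPKM at day 0 (log2 change -3.23 ± 0.59, adjusted p = 0.019). Its day 0 value was low in sh1 and high in both sh2 libraries. C11orf96 and the unnamed ENSG00000228873 fell by 2.88 and 3.23 on the log2 scale. Without the 2 libraries with contradicting tags, ADAMTS2, FLT1, C11orf96 and ENSG00000228873 were not called, and by limma-voom PLN and FLT1 were not. In all, 38 of the genes that rose and 6 of those that fell had no name.

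The response of sh003 cells was then set against that of control cells. Its direction was nearly the same: all 305 genes that rose in sh003 cells had a change above 0 in control cells, and 147 of the 153 that fell had a change below 0 there. Over all genes tested, 62.6% had a change above 0 in control cells. Of the 305, 82 also rose in control cells, which is 82 of the 137 genes that rose there (0.704%), and of the 153, 35 also fell, out of 49 in control cells (0.252%). With the block 1494 genes were called in control cells (7.68%). The control response was fitted from 2 day 7 libraries and the sh003 response from 3, so these counts do not compare the strength of the responses. For the genes that rose the median change was 1.36 in sh003 cells and 1.04 in control cells, and for the genes that fell -1.30 in sh003 cells and -0.80 in control cells. Since the genes were chosen on the sh003 change, a larger value there is no finding. In the test of the difference itself, limma called 0 genes (0%), while 284 had an unadjusted p under 0.05 (1.46%). With the block it again called 0, while 731 had an unadjusted p under 0.05 (3.76%), and limma-voom on reads called 0 without the block and 0 with it.

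**Figure D5:**
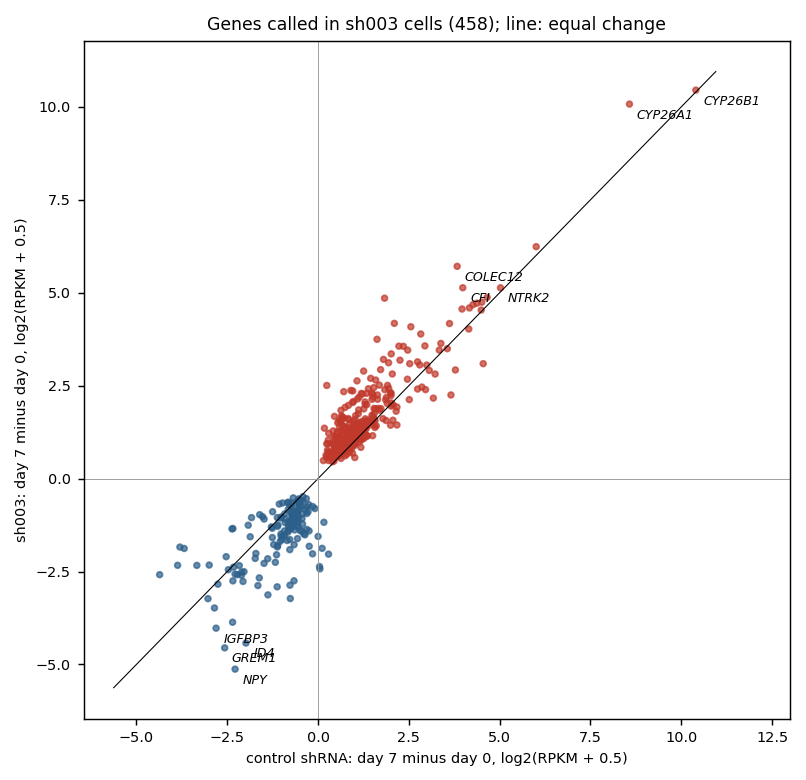
Change at day 7 of the 458 genes called in sh003 cells, in control cells on the x axis and in sh003 cells on the y axis, log2(RPKM + 0.5). Red points rose and blue points fell in sh003 cells and the line marks equal change; CYP26B1, at 10.45 in sh003 cells and 10.40 in control cells, lies on the line, and NPY, at -5.13 in sh003 cells and -2.28 in control cells, lies below it.

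Of the 4 genes with the smallest p for the difference 3 are given as values, none with an adjusted p under 0.05. IL33, an alarmin cytokine, had 0.455, 1.13 and 0.602 RPKM at day 7 and 5.62, 5.62 and 5.77 RPKM at day 0 in sh003 cells, against 0.181 and 0.296 RPKM at day 7 and 0.0521, 0.165 and 0.498 RPKM at day 0 in control cells. In sh003 cells every day 0 library was above 5 RPKM, and in control cells no library reached 1 RPKM (difference of changes -2.41 ± 0.44, unadjusted p = 0.000181). ATP2B1, a plasma membrane calcium pump, differed by -1.34 ± 0.26 (unadjusted p = 0.0003) and CREB5, a factor that binds cAMP response elements, by -1.87 ± 0.41 (unadjusted p = 0.000721). For both, the sh003 change was below 0 (-0.45 and -0.97) and the control change above 0 (0.89 and 0.90). With the block the smallest p belonged to SAMD11, which overlaps NOC2L on the other strand, and its difference was 1.86 ± 0.26 (unadjusted p = 3.48e-05, adjusted p = 0.46). SAMD11 had 6.48, 6.53 and 6.09 RPKM at day 7 and 28.8, 55.5 and 42.1 RPKM at day 0 in sh003 cells, against 3.0 and 1.15 RPKM at day 7 and 73.6, 50.1 and 31.5 RPKM at day 0 in control cells, a smaller fall in sh003 cells.

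The genes that fell in sh003 cells differed in how their day 0 level stood to that of control cells, and NPY and ID4 were higher in sh003 cells. NPY had 9.47, 63.5 and 23.4 RPKM at day 7 and 781, 1547 and 536 RPKM at day 0 in sh003 cells, against 18.7 and 27.1 RPKM at day 7 and 121, 68.7 and 167 RPKM at day 0 in control cells. ID4 had 0.94, 2.33 and 1.12 RPKM at day 7 and 52.8, 51.6 and 23 RPKM at day 0 in sh003 cells, against 0.999 and 0.566 RPKM at day 7 and 3.19, 2.76 and 9.9 RPKM at day 0 in control cells. At day 0 the sh003 libraries were all above the control libraries for both genes, whereas at day 7 they were close to them or overlapped. The difference of the changes was -2.84 ± 1.12 for NPY (unadjusted p = 0.0276) and -2.44 ± 0.84 for ID4 (unadjusted p = 0.0146), and neither passed the adjustment. NPY at day 0 was also above the control libraries in sh004 cells, with 196 and 273 RPKM. DDC, which fell as well, was at 23.4, 22 and 19 RPKM at day 0 in sh003 cells, against 39.9, 75.6 and 59.6 RPKM in control cells, and was thus lower in sh003 cells. GREM1 differed by -1.98 ± 1.06 (unadjusted p = 0.089), IGFBP3 by -1.22 ± 0.78 (unadjusted p = 0.146) and DKK1 by -1.75 ± 0.58 (unadjusted p = 0.0114). The genes that limit retinoic acid had differences that did not pass: CYP26B1 differed by 0.05 ± 0.96, CYP26A1 by 1.5 ± 1.32 and DHRS3 by 0.23 ± 0.95 (unadjusted p = 0.96, 0.28 and 0.811).

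The immediate early genes were the list with the most members whose change was lower in sh003 cells at an unadjusted p under 0.05 without the block. At that p, 7 of the 21 were lower in sh003 cells than in control cells, JUN, EGR1, EGR3, ATF3, DUSP1, DUSP5 and DUSP6, and 0 were higher, against 1.46% of all genes in either direction, and none of them passed the adjustment. With the block 10 were lower and 0 higher (3.76% of all genes). The median change was -0.97 in sh003 cells, -0.08 in sh004 cells and -0.17 in control cells. In sh003 cells it was -0.60 without the sh1 day 7 library and -0.40 without the 2 contradicting libraries, or -0.92 without these 2 and with the block. EGR1, an early transcription factor, had 7.43, 32.6 and 8.44 RPKM at day 7 and 7.5, 51.5 and 41.7 RPKM at day 0 in sh003 cells, against 18.2 and 18.6 RPKM at day 7 and 11.6, 5.83 and 0.866 RPKM at day 0 in control cells (difference -2.97 ± 1.30, unadjusted p = 0.0431). Within each batch that held both lines, 17 of the 21 had the lower change in sh003 cells in batch 1 and in batch 2 alike, and 0 the higher, where 25.4% of all genes were lower and 30.3% higher in both. The batch 1 pair of sh003 cells holds the sh2 day 0 library whose tag contradicts its title. Of the 25 replication and mitosis genes 19 had the lower change in sh003 cells in both batches and 0 the higher, with none at an unadjusted p under 0.05 without the block and 3 with it.

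Against the sh004 cells, limma called 0 genes for the difference of the responses (0%), while 472 had an unadjusted p under 0.05 (2.43%). With the block it called 3 genes (0.0154%), 1 with the higher change in sh003 cells (0.00514%) and 2 with the lower (0.0103%), while 1110 had an unadjusted p under 0.05 (5.7%). By limma-voom on reads it was 0 without the block and 0 with it. The sh004 response itself counted 49 genes that rose (0.252%) and 25 that fell (0.128%), or 410 with the block (2.11%), 277 up (1.42%) and 133 down (0.683%). Of the 305 genes that rose in sh003 cells 296 had a change above 0 in sh004 cells, and of the 153 that fell 150 had a change below 0. Over all genes tested, 52.8% had a change above 0 in sh004 cells. ST8SIA6, a sialyltransferase, had 7.4, 13.6 and 11.4 RPKM at day 7 and 0.182, 0.126 and 0.0268 RPKM at day 0 in sh003 cells, against 1.38 and 0.336 RPKM at day 7 and 0.0273 and 0.063 RPKM at day 0 in sh004 cells. It rose in sh003 cells (log2 change 4.18 ± 0.36, adjusted p = 0.000265), and the difference of 2.97 ± 0.58 had an unadjusted p of 0.000302. BCL2A1, an inhibitor of apoptosis, stood at 0.112, 0 and 0.0331 RPKM at day 7 and 0.219, 0 and 0 RPKM at day 0 in sh003 cells, against 15.8 and 3.67 RPKM at day 7 and 0 and 0.0253 RPKM at day 0 in sh004 cells (difference -4.05 ± 0.70, unadjusted p = 0.000122). The sh1 and sh2 day 7 libraries of sh004 cells were far apart in CYP26A1, at 301 and 9.0 RPKM, and without the sh1 library the difference was called for 8 genes, or for 125 with the block.

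The 2 shRNAs against CASC15-003 can be compared within 1 batch at day 7 only, with 1 library each, so the values are a description without a test. At day 7 in batch 2, 21 of the 25 replication and mitosis genes were higher in sh1 than in sh2 cells, by a median of 0.66 and by more than 1 for 12, and 21 of the 25 lay between the day 7 and the day 0 value of sh2. Over all 19461 genes 8918 were higher and 9498 lower in sh1, and 474 were higher by more than 1. CDC20, an activator of the anaphase complex, had 43.3 RPKM in sh1 and 4.4 RPKM in sh2, and PLK1, a mitotic kinase, 26.9 RPKM in sh1 and 3.41 RPKM in sh2. Of the 26 axon and synapse genes 23 were lower in sh1, by a median of -0.54, and of the 14 neuropeptide genes 12, by a median of -0.84. SCG2, a secretogranin of dense-core vesicles, had 31.8 RPKM in sh1 and 156 RPKM in sh2, and the neuronal adhesion molecule NRCAM 6.15 RPKM in sh1 and 40.5 RPKM in sh2. Both gaps were there at day 0 too, where sh1 is from another batch: SCG2 had 12.6 RPKM in sh1 and 240.2 and 149.8 RPKM in sh2, and NRCAM 27.6 RPKM in sh1 and 85.9 and 83.4 RPKM in sh2. The sh1 day 7 library thus sat apart from sh2 in 2 directions at once, with more mitotic and less neuroendocrine transcript. Of its 18 retinoid genes 14 were above sh2 and 4 below, RARB and STRA6 among the 4, with a median of 0.22. It is also the library tagged as not differentiated, and whether the shRNA or the culture set these values was not tested.

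The genes that the series' title joins into an axis with CASC15, and its neighbour SOX4, did not pass in the response of sh003 cells. SOX9, a transcription factor of neural crest and cartilage, had 46.5, 54.6 and 28.7 RPKM at day 7 and 20.9, 43.9 and 21.9 RPKM at day 0 (log2 change 0.61 ± 0.63, adjusted p = 0.716). CHD7, a chromatin remodeller, had 11.7, 12 and 9.23 RPKM at day 7 and 10.4, 15 and 13.9 RPKM at day 0 (log2 change -0.24 ± 0.23, adjusted p = 0.688). USP36, a nucleolar deubiquitinase, had 11, 13 and 10.7 RPKM at day 7 and 9.73, 14.9 and 12.2 RPKM at day 0 (log2 change -0.07 ± 0.21, adjusted p = 0.995). SOX4, a transcription factor gene beside CASC15 on chromosome 6, had 67.3, 124 and 80.6 RPKM at day 7 and 129.9, 135 and 83.3 RPKM at day 0 (log2 change -0.37 ± 0.34, adjusted p = 0.665). The day 7 and day 0 libraries overlapped for each of the 4.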

How the data were processed

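Ribosome-depleted, stranded total RNA libraries of SH-SY5Y cells were sequenced, per the labels' protocols. The deposited values are RPKM, reads per kilobase of gene scaled to the library's assigned reads, made by the authors with TopHat, Subread and featureCounts on hg19, per the submitters' processing notes, and versions, annotation and counting strand are not given in the sources used here. Multiplying out the deposited gene length gave whole reads for 100% of values (tolerance 0.01 read) and 11884895 to 37938767 reads per monolayer library. Intervals of counting error were not used, since fits rest on replicate libraries.

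The 15 monolayer libraries in 6 groups were fitted with limma 3.58.1 (R 4.3.3; lmFit, eBayes with trend) on log2(RPKM + 0.5) for the 19461 genes of 63677 with at least 1 RPKM in at least 2 libraries, 1 mean per group, and p-values adjusted by Benjamini-Hochberg over these genes, called under 0.05. Fold changes are on that scale. Numbers in titles mark batches, by which libraries were paired, and batch as a block was the paired alternative. Within control and sh003 cells, deviations from group means correlated at 0.72 to 0.94 between libraries of 1 batch. Between batches 2 and 3 they correlated at 0.54 to 0.74, so these values mainly set batch 1 apart. The sh004 libraries, all of batch 2, correlated at -0.20 to 0.20 between the days. Others were pseudocounts of 0.1 and 1, other filters, scalings, limma-voom on recovered reads, and leaving out libraries. A "pair" is the plain difference within an sh2 batch.

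Members and gene lists were chosen with earlier results of these data known. Genes named are 6 markers, the 12 largest called changes per direction with a mean of at least 2 RPKM and groups that do not overlap, up to 6 called members per list and direction, textbook members as values, the 4 smallest p-values of each difference, and the CASC15 axis. Some genes that this rule takes are not reported here. ST8SIA6, the genes of the sh1 and sh2 comparison and those that passed only with the block were picked after their values were seen. Names of 52181 gene IDs came from a reference table. The shRNA sites were matched to GENCODE transcripts of GRCh38, and promoters come from RefSeq. The methods were tested on simulated data. The sphere cultures and KELLY cells, 7 libraries, were not analysed here.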

Additional observations from a re-analysis of the deposited data

Results flagged for a closer look

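In 3 genes the response of sh003 cells differed from that of sh004 cells by a test of the difference, with batch as a block and an adjusted p under 0.05 by limma. VCAM1, an adhesion molecule, had 0.00506, 0.0602 and 0.0298 RPKM at day 7 and 1.04, 0 and 0.0116 RPKM at day 0 in sh003 cells, against 10.6 and 8.01 RPKM at day 7 and 0.101 and 0.00456 RPKM at day 0 in sh004 cells. It was low in sh003 cells, highest in the sh1 batch 3 day 0 library, and present at day 7 in sh004 cells (difference -4.06, adjusted p = 0.000166). OR2I1P, an olfactory receptor pseudogene that overlaps UBD and GABBR1, had 0, 0 and 0 RPKM at day 7 and 3.4, 0 and 0.0372 RPKM at day 0 in sh003 cells, against 69.1 and 106 RPKM at day 7 and 0.151 and 0 RPKM at day 0 in sh004 cells. No read was assigned to it in the sh003 day 7 libraries, and it was high in both sh004 day 7 libraries (difference -7.215, adjusted p = 1.05e-05). GABBR1 was among the genes at 0 in all batch 1 libraries, so the zeros of OR2I1P in batch 1 may not show absence. The unnamed ENSG00000252379 had 1.02, 1.35 and 1.6 RPKM at day 7 and 1.77, 0 and 0 RPKM at day 0 in sh003 cells, against 0.293 and 0 RPKM at day 7 and 0.798 and 0.613 RPKM at day 0 in sh004 cells, all low values (difference 2.80, adjusted p = 0.0461). None of the 3 was called without the block or by limma-voom with it. Control cells resembled sh003 cells in 2 of the 3 genes: VCAM1 was at 0 and 0.0816 RPKM at day 7 and 0, 0.0208 and 1.16 RPKM at day 0, and OR2I1P at 0 and 0.0651 RPKM at day 7 and 0, 0 and 4.79 RPKM at day 0, the batch 3 library being the highest of day 0 for both. The high day 7 levels of these 2 genes were thus in the sh004 libraries. All sh004 libraries were of batch 2, so with the block the sh003 libraries of batches 1 and 3 entered through the batch terms.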

How the results depend on the processing

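For sh003 day 7 against day 0 the count of called genes was 458, with 455 and 503 under pseudocounts of 0.1 and 1, 452 under a stricter filter, 465 under median-ratio scaling and 417 by limma-voom. It was 2779 with the replicate block, 1941 with the block in the sh2 pairs only, 291 under quantile normalization, 129 with only the 2 groups in the fit, 65 without batch 1 and 191 without the 2 libraries whose tags contradict their titles. Chosen after seeing the data, limma-voom with the block gave 2209, the block with median-ratio scaling 2872 and the block without the contradicting libraries 911. Leaving out each library in turn gave 124 to 560. With the block it gave 344 to 2469, with 2469 without sh1 and 945 without sh2 batch 1 at day 0, and 2194 without sh1, 897 without sh2 batch 1 and 1129 without sh2 batch 2 at day 7. The fall without batch 1 or without single libraries comes with fewer libraries in the fit; for the other settings the cause was not tested.

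For the difference from control cells the count was 0, with 18 without a filter, 22 without batch 1, and 0 to 5 on leaving out each library with the block. For the difference from sh004 cells it was 0, with 13 without a filter, 3 without batch 1, with the replicate block, with the block in the sh2 pairs only, with the block and median-ratio scaling, and with the block without the contradicting libraries. Leaving out each library gave 0 to 8, and with the block 2, 4, 5, 6, 7 or, without the sh1 day 7 library of sh004 cells, 125.

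Of the 59 named genes that were called, the replicate block kept 59 and so ended no call, each pseudocount 58, median-ratio scaling 57, limma-voom 53 (not CYP26A1, CFI, PLN, FLT1, ADCYAP1R1 or CDK1), quantile normalization 49, no filter 48, only the 2 groups 26, the set without contradicting libraries 25 and the set without batch 1 13. None of the 59 changed direction in any of these settings. Among genes not called, USP36 (-0.07) was 0.11 without the contradicting libraries and ranged over -0.22 to 0.0737 on leaving out each library, 0.0737 without the sh2 batch 1 day 0 library, and SOX4 (-0.37) was 0.12 with the block and without the contradicting libraries. CYP26A1 and CYP26B1 changed by 11.94 and 11.60 under a pseudocount of 0.1 and by 9.16 and 9.72 under 1. The batch 1 libraries of sh003 cells, with 12116148 and 16476435 reads, set the limit for low genes.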
